A study of Homo sapiens with 4 samples.

Results

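The 41 genes described here encode proteins of the extracellular matrix and the receptors that bind it: 9 matrix glycoproteins of the interstitial kind, 6 laminin chains, 6 collagen chains, 3 other basement membrane components, the proteoglycan versican, 4 genes for a matrix protease and protease inhibitors, 5 integrin alpha chains, 3 integrin beta chains and 4 other matrix receptors. They were chosen by symbol, and all 41 were found among the 61498 genes of the files, each under 1 gene identifier. Poly(A) RNA had been sequenced from K562, a human erythroleukaemia cell line grown in suspension, in 2 untreated libraries and in 2 libraries of cells kept with 50 µM hemin for 108 h. Hemin is an iron porphyrin that drives these cells toward the erythroid state. All 4 libraries come from the same single cell line, which limits them as a model of normal erythroid cells, and nothing in the labels says that the libraries of a condition came from separate cultures, so the p-values measure the spread between these libraries only. Expected counts, which are estimated reads per gene, summed to between 7455447 and 8241534 per library.

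The extracellular matrix is a meshwork of secreted glycoproteins, collagens and proteoglycans. Laminins are trimers of an alpha, a beta and a gamma chain and form the core sheet of basement membranes together with collagen IV, nidogen, perlecan and agrin, while fibronectin is assembled into fibrils around cells. Integrins are dimers of an alpha and a beta chain that hold the cell to these proteins, and the adhesion of red cell precursors to fibronectin and its loss during maturation are a well-known feature of the bone marrow.

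Of the 41 genes, 22 had enough counts to be tested, and 14 of these fell after hemin, whereas none rose (edgeR quasi-likelihood test, Benjamini-Hochberg adjusted p under 0.05 over the 14458 genes tested). Over all genes tested, 7.14% were called lower and 7.00% higher, against 63.6% and none among the tested members, or 34.1% of all 41. The 41 genes were chosen with earlier results of these data known, so the difference between these shares carries no test. All of the 22 except COL5A1 were above the count filter in both conditions. The median log2 fold change of the 22 was -0.36, beside -0.0048 for all genes tested. The decreases of ABI3BP, VCAN and ADAMTSL4 were more than 2-fold, and the other 11 were of 17.0% to 48.6%. The genes that fell were fibronectin, ABI3BP, ADAMTSL4 and SPARC among the glycoproteins, the laminin chains LAMA3, LAMA5 and LAMB1, the collagen chain COL18A1, agrin, versican, and the integrin chains ITGA5, ITGAV, ITGB1 and ITGB5. In counts scaled to the library total, both treated libraries lay below both untreated ones for all 14. The same held for 34.7% of all genes tested. DESeq2 gave an adjusted p for 19 of the 22, COL5A1, FBN1 and VCAN being left without one for their low mean counts, and called 12 lower and none higher, with 3.49% and 4.07% of all genes called lower and higher. By limma on log2(TPM + 1), where TPM is RSEM's transcript level scaled by length and depth, only LAMA3 was called among the members, and 33 genes were lower and 14 higher over all genes. In bulk RNA, fewer cells that express a gene and less of its RNA per cell cannot be told apart.

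**Figure D1:**
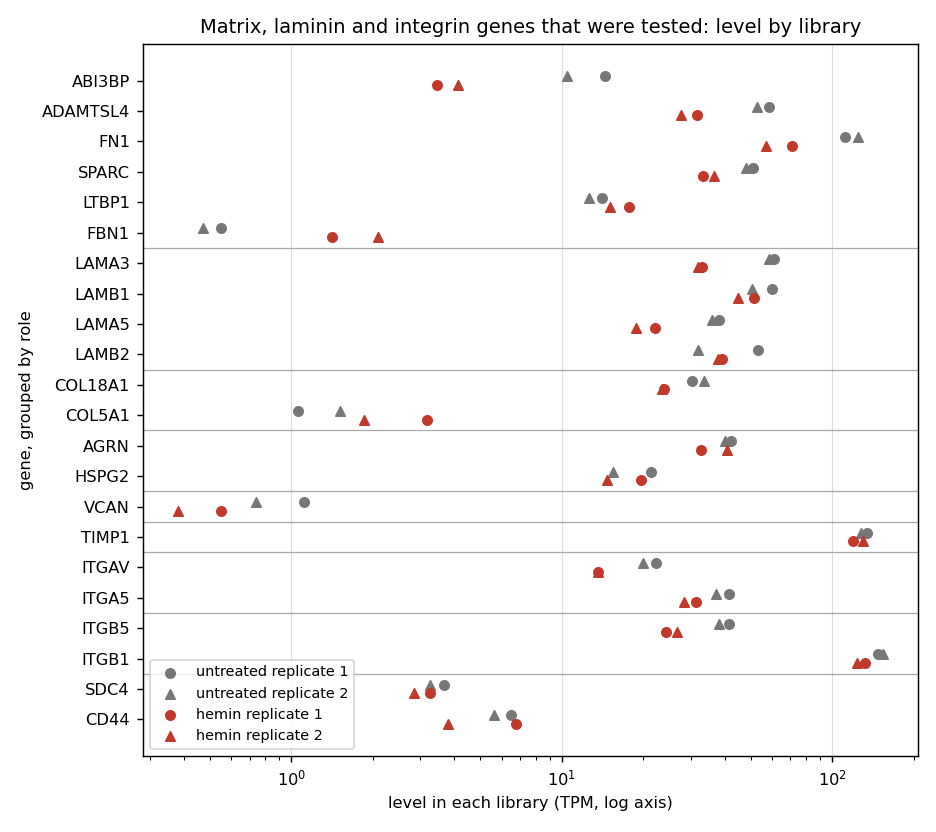
Level of the 22 tested genes in each library, in TPM on a log axis, with genes grouped by role and lines between the groups. Grey marks are the untreated libraries and red marks the hemin-treated ones; for FN1, LAMA3, LAMA5, ITGA5, ITGAV and ITGB5 both red marks lie to the left of both grey ones, whereas for TIMP1, HSPG2, LAMB2 and CD44 the conditions overlap.

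Fibronectin (FN1, ENSG00000115414), the adhesive glycoprotein bound by integrins on most adherent cells, was the third most abundant member in every library, after ITGB1 and TIMP1. The gene lies on the minus strand at chr2:215360440-215436073 (GRCh38). Its level was 111 and 124 TPM in the untreated libraries and 70.8 and 56.7 TPM after hemin, on average 118 ± 9.16 against 63.7 ± 9.95 TPM (SD, n = 2). It had 4105 and 3906 counts in untreated cells and 2168 and 2315 counts in treated cells, so the conditions did not overlap. The log2 fold change of the counts was -0.85 (standard error 0.04, edgeR adjusted p = 1.6e-05), which is a decrease of 44.3%. Across the 14 alternative settings it lay between -0.89 and -0.83.

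The window from 250 bases before to 50 bases after a gene's RefSeq start was available for 34 of the 41 genes and for 13 of the 14 that fell. The windows of FN1, LAMA3 and ADAMTSL4 are shown because these were the most highly counted of the 5 genes with the largest decreases. Capitals mark the letters TGACGTCA (the cyclic AMP response element), TGACTCA (AP-1), GGGCGG (the GC box bound by SP1), CCAAT and TATAAA, searched on both strands, with neighbouring GC boxes allowed to overlap. The sequences are from RefSeq on GRCh38.p14 and are written in the direction of transcription. They lie at chr2:215436019-215436318 on the minus strand, chr18:23872770-23873069 on the plus strand and chr1:150549158-150549457 on the plus strand.
FN1: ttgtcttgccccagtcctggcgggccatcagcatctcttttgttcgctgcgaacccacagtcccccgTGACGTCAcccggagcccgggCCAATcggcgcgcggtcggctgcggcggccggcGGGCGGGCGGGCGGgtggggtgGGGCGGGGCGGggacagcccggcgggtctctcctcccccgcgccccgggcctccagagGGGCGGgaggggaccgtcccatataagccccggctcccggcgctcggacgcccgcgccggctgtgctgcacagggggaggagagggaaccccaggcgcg
LAMA3: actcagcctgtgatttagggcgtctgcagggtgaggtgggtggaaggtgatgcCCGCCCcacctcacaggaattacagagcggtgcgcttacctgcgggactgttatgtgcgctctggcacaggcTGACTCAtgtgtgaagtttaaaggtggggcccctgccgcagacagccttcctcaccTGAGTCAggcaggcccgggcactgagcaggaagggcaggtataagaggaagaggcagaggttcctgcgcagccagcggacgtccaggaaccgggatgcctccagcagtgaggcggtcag
ADAMTSL4: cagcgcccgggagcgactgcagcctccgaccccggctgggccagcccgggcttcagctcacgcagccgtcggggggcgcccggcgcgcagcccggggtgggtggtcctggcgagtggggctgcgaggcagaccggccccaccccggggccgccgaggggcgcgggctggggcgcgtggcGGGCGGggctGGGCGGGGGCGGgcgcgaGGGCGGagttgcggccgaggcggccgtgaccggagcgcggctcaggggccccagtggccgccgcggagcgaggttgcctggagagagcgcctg
The FN1 window holds the cyclic AMP response element beginning 183 bases before the start, a CCAAT box at 162 bases and 6 GC boxes. The LAMA3 window holds AP-1 letters at 125 and 69 bases before the start, and the ADAMTSL4 window holds 4 GC boxes between 71 and 43 bases before it. Among the 13 windows of genes that fell, 1 held the cyclic AMP response element, 2 held AP-1 letters (LAMA3 and ITGA5), 11 held a GC box, 2 held CCAAT and 3 held TATAAA. Of all 35116 windows in the table, 1.85% held TGACGTCA, 4.95% held TGACTCA, 45.0% held GGGCGG, 34.6% held CCAAT and 11.5% held TATAAA. These matches describe the sequence only, since neither binding nor the start used in these cells was measured.

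ABI3BP (ENSG00000154175, chr3:100749156-100993515), a secreted glycoprotein with fibronectin type III domains, had the steepest decrease of the group. It had 108 and 110 counts before and 31 and 26 counts after hemin. In TPM this is 14.5 and 10.4 against 3.44 and 4.12. Counts fell by 1.94 on the log2 scale (standard error 0.20, edgeR adjusted p = 5.3e-04), to a 3.83-fold lower level, and the log2 fold change ranged from -2.13 to -1.48 over the alternatives.

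ADAMTSL4 (ENSG00000143382, chr1:150549369-150560937), an ADAMTS-like protein without protease activity that binds fibrillin microfibrils, went from 1164 and 1019 counts to 502 and 541. Its levels were 58.4 and 52.6 TPM in untreated cells and 31.7 and 27.6 TPM in treated cells, with no overlap. This was a log2 fold change of -1.07 (standard error 0.06, edgeR adjusted p = 3.0e-05), or 2.10-fold lower. Its exons overlap the opposite strand lncRNA ADAMTSL4-AS1 over 11.4% of its exonic bases, a gene with 8 to 11 counts per library. They also share 43 bases (0.669%) with MCL1 on the opposite strand, which had 1518 to 1741 counts per library, and the part of shared reads was not tested.

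SPARC (ENSG00000113140), also known as osteonectin, is a collagen-binding matricellular protein. Its counts were 266 and 256 in untreated cells and 188 and 198 in treated cells, and its TPM were 50.8 and 48.0 against 33.3 and 36.5. Its counts fell by 0.44 on the log2 scale (standard error 0.09, edgeR adjusted p = 0.0105). The call was lost in some settings, as DESeq2 gave an adjusted p of 0.0622 and edgeR gave 0.0501 without untreated replicate 1 and 0.0537 without untreated replicate 2.

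None of the other glycoproteins was past the threshold. LTBP1, which tethers latent TGF-beta to the matrix, had 381 counts in both untreated libraries and 363 and 402 counts after hemin, and its log2 fold change was -0.00 with a standard error of 0.07 (edgeR adjusted p = 0.99). FBN1, the fibrillin of elastic microfibrils, was scarce at 14 and 12 counts in untreated and 21 in each treated library. Its log2 fold change of 0.68 had a standard error of 0.36 and was not past the threshold (edgeR adjusted p = 0.243). FBLN1 (fibulin) had no count in either untreated library and 2 counts in each treated one, TNC (tenascin) had 1 count in a single untreated library, and TGFBI had none in any library.

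The levels of the laminin chains were uneven. Among the chains measured, LAMA3, LAMA5, LAMB1 and LAMB2 lay between 18.8 and 60.6 TPM in every library, whereas neither of the gamma chains LAMC1 and LAMC3 exceeded 1.18 TPM. The summed level of the 5 laminin alpha chains was 103.6 and 97.7 TPM in untreated cells and 60.8 and 55.5 TPM after hemin. That of the beta chains was 113 and 83.2 against 90.6 and 82.8 TPM, and that of LAMC1 and LAMC3 was 1.74 and 1.57 against 1.13 and 1.11 TPM. LAMC1, the gamma chain of most laminins, was read by only 12 and 7 counts in untreated cells and by 7 and 6 counts in treated cells, too few to be tested.

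LAMA3 (ENSG00000053747, chr18:23689453-23956222), the alpha chain of the laminin of epithelial basement membranes, was 60.6 and 58.1 TPM in untreated cells and 32.9 and 31.9 TPM in treated cells. Its counts were 2042 and 1763 against 927 and 1037, and the libraries of a condition lay far closer to each other than to those of the other condition. The log2 fold change was -0.96 (standard error 0.06, edgeR adjusted p = 3.0e-05), a decrease of 48.6%, and LAMA3 was past the threshold in all 14 alternatives. The gene has an outer start, from which GENCODE 44 lists coding transcripts of 10651 and 9834 spliced bases. From an inner start it lists coding transcripts of 5618 and 5007 bases. A further coding transcript of 8171 bases starts between them, and the remaining coding ones have at most 3494 bases. RSEM's abundance-weighted mean transcript length for LAMA3 was 6048 and 5655 bases in untreated and 5267 and 5528 bases in treated libraries. These means are nearer to the lengths from the inner start, but a mix of longer and shorter transcripts can also give them. The promoter window printed above is the one around that inner start.

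LAMA5 (ENSG00000130702), the alpha chain of the laminins of bone marrow and endothelial basement membranes, had 772 and 617 counts in untreated cells and 478 and 537 counts in treated cells. The log2 fold change of the counts was -0.46 (standard error 0.08, edgeR adjusted p = 0.0074). In TPM the decrease was larger, from 38.2 and 35.9 to 22.0 and 18.8, a log2 ratio of means of -0.86. RSEM's mean transcript length for LAMA5 was 3646 and 3227 bases in untreated and 4062 and 4877 bases in treated libraries, and TPM divides by that length. Its exons share 244 bases (1.71%) with ADRM1 on the opposite strand, which had 460 and 492 counts in untreated and 566 and 568 in treated cells.

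LAMB1 (ENSG00000091136, chr7:107923799-108003213) differed between the scales in the opposite sense. Its counts fell from 1401 and 1235 to 844 and 968 (log2 fold change -0.55, standard error 0.05, edgeR adjusted p = 5.0e-04). In TPM it was 59.6 and 50.4 in untreated and 51.3 and 44.7 in treated libraries, which overlap, with a log2 ratio of means of -0.20. Its mean transcript length went from 4234 and 4571 to 3094 and 3700 bases. The size of the LAMB1 decrease therefore depends on whether reads or length-scaled transcripts are compared, and the part of RSEM's transcript assignment in this was not tested. On the opposite strand, DLD shares 300 bases (1.61%) of the LAMB1 exons and had 1450 to 1634 counts per library.

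LAMB2 had 465 and 361 counts in untreated and 310 and 363 counts in treated libraries, so that one library of each condition nearly coincided. Its log2 fold change of -0.30 (standard error 0.10) was not past the threshold (edgeR adjusted p = 0.0749). Without untreated replicate 2 it was -0.44 with an adjusted p of 0.0304, and without untreated replicate 1 it was -0.15 with 0.391. LAMB3, the beta chain that pairs with LAMA3 in epithelial laminin, had 2 counts in one treated library and none elsewhere.

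**Figure D2:**
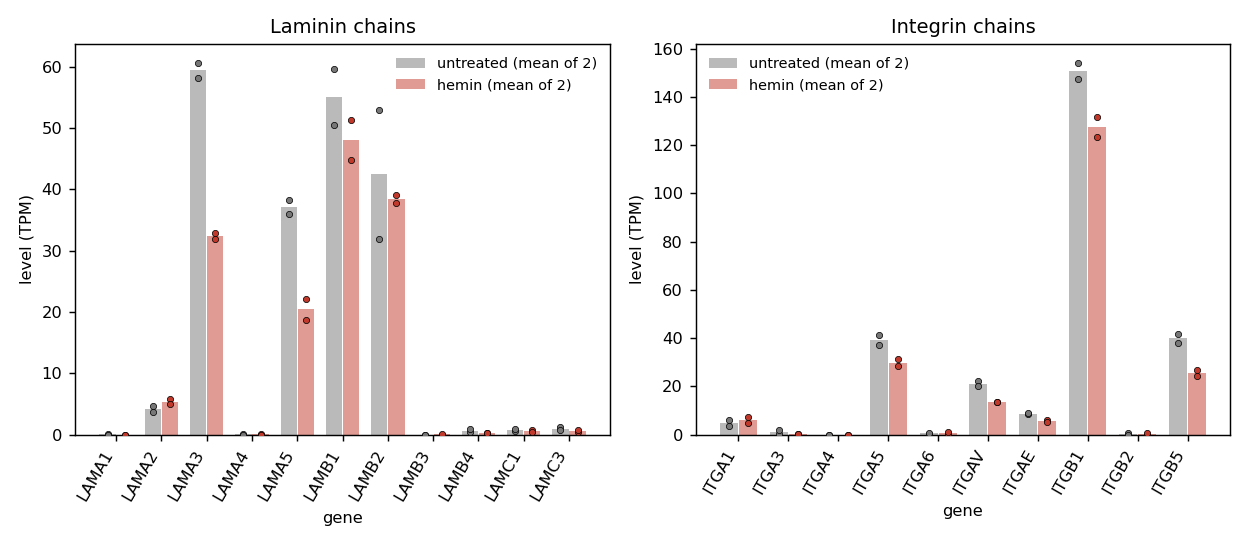
Levels in TPM of laminin chains (left) and of integrin chains (right), as bars for the mean of 2 libraries with a point for each library, grey for untreated and red for hemin-treated cells. LAMA3, LAMA5, LAMB1 and LAMB2 stand far above the gamma chains LAMC1 and LAMC3, and ITGB1 is the highest of the integrin chains.

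Of the collagen chains, only COL18A1 and COL5A1 were tested. COL18A1 (ENSG00000182871, chr21:45405165-45513720), the basement membrane collagen whose end fragment is endostatin, had 757 and 760 counts in untreated cells and 615 and 652 counts in treated cells. The log2 fold change was -0.27 (standard error 0.06, edgeR adjusted p = 0.0155), but leaving out untreated replicate 2 gave an adjusted p of 0.0848 and leaving out hemin replicate 2 gave 0.0507. COL18A1 shares 18.5% of its exonic bases with SLC19A1 on the opposite strand, whose counts were 321 and 363 in untreated and 457 and 470 in treated cells. The sources used here do not state that counting used strand, and RSEM's posterior SD was 0.525% of the COL18A1 count. The part of SLC19A1 reads in the COL18A1 value was not tested.

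COL5A1, a chain of fibrillar collagen V, had 8 and 9 counts in untreated libraries and 14 in each treated library, and it reached the count filter only through the treated libraries. Its log2 fold change of 0.70 (standard error 0.43, edgeR adjusted p = 0.324) was not past the threshold. Of the chains of collagen IV, the network collagen of basement membranes, COL4A1 had 1 count in a single untreated library and COL4A2 had none. The collagen IV chain COL4A5, which is not a member, had 163 and 135 counts in untreated and 108 and 132 counts in treated libraries. COL6A1 was read by 3, 5, 0 and 1 counts and COL6A2 by 4, 8, 1 and 4 counts in untreated replicates 1 and 2 and hemin replicates 1 and 2, in that order.

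Among the other basement membrane components, agrin and perlecan were both well expressed, and nidogen (NID1) had no count. Agrin (AGRN, ENSG00000188157, chr1:1020120-1056118), a heparan sulfate proteoglycan that links laminin to the cell surface, had 1151 and 1092 counts in untreated and 920 and 943 counts in treated cells. Its counts did not overlap between conditions and fell by 0.28 on the log2 scale (standard error 0.05, edgeR adjusted p = 0.008). Its TPM did overlap, at 42.4 and 40.2 against 32.7 and 40.9. Perlecan (HSPG2), with 1165 and 1028 counts in untreated and 994 and 1133 in treated cells, had a log2 fold change of -0.05 with a standard error of 0.05 (edgeR adjusted p = 0.576).

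Versican (VCAN), a large proteoglycan that binds hyaluronan, was near the lower limit of detection, at 34 and 26 counts in untreated and 10 and 15 counts in treated libraries. Its levels were 1.11 and 0.74 TPM against 0.55 and 0.38 TPM. Its counts fell by 1.26 on the log2 scale (standard error 0.35, edgeR adjusted p = 0.0417), and it was not past the threshold when any of the 4 libraries was left out, with adjusted p of 0.184 and 0.0883 without untreated replicates 1 and 2 and of 0.15 and 0.0574 without hemin replicates 1 and 2. DESeq2 gave it no adjusted p.

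Of the genes for a protease and for protease inhibitors, TIMP1, a secreted inhibitor of matrix metalloproteinases, was the only one expressed at more than a few counts. It was among the most abundant members, at 135 and 128 TPM in untreated and 119 and 129 TPM in treated cells, and its levels overlapped. Its log2 fold change was -0.05 with a standard error of 0.07 (edgeR adjusted p = 0.702). TIMP2 and TIMP3 had no count in any library, and the protease ADAMTS1 had at most 2.

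All 4 integrin chains of the group that were tested fell, in the order ITGAV, ITGA5, ITGB5 and ITGB1 from the largest decrease to the smallest, with ITGA5 and ITGB5 closer to each other than their standard errors. ITGB1 (ENSG00000150093, chr10:32887273-33005792), the beta chain shared by most matrix-binding integrins, was the most abundant member in 3 of the 4 libraries, at 147 and 154 TPM in untreated and 132 and 124 TPM in treated cells. Its counts of 2515 and 2538 against 1974 and 2213 gave a log2 fold change of -0.28 (standard error 0.05, edgeR adjusted p = 0.0051). The decrease of 17.7% was small. Both treated libraries lay below both untreated ones on each scale, as they did in scaled counts for 34.7% of all genes tested.

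ITGA5 (ENSG00000161638, chr12:54395261-54419266), which with ITGB1 forms the classical fibronectin receptor, went from 41.4 and 37.1 TPM to 31.3 and 28.4 TPM. Its counts of 798 and 751 against 561 and 588 fell by 0.44 on the log2 scale (standard error 0.06, edgeR adjusted p = 0.0014). ITGAV (ENSG00000138448, chr2:186590010-186680901), the alpha chain of receptors for vitronectin and fibronectin, went from 22.3 and 19.9 TPM to 13.7 and 13.6 TPM. Its counts of 573 and 565 against 373 and 406 gave a log2 fold change of -0.55 (standard error 0.06, edgeR adjusted p = 9.1e-04).

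ITGB5 (ENSG00000082781, chr3:124761948-124901418), which pairs with ITGAV in a vitronectin receptor, was 41.6 and 38.1 TPM in untreated and 24.2 and 26.8 TPM in treated cells. Its counts were 344 and 293 against 221 and 256. Its counts fell by 0.42 on the log2 scale (standard error 0.09, edgeR adjusted p = 0.0144), and the adjusted p was 0.0942 without untreated replicate 1, when the estimate was -0.35. The remaining integrin chains were scarce. ITGA4, the alpha chain of the lymphoid and early erythroid fibronectin receptor, had no count in any library. ITGA3 was read by 1 to 6 counts, ITGA6 by 1 to 4 counts and the leukocyte beta chain ITGB2 by 0 to 3 counts per library.

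The other matrix receptors were low. CD44, the hyaluronan receptor, had 43 and 25 counts in untreated and 40 and 36 counts in treated libraries, with a log2 fold change of 0.16 (standard error 0.29, edgeR adjusted p = 0.773) whose sign changed between settings. SDC4, a syndecan that acts with integrins on fibronectin, had 53 and 45 counts in untreated and 45 and 43 counts in treated libraries, with a log2 fold change of -0.16 and a standard error of 0.22 (edgeR adjusted p = 0.683). SDC1 had 2 to 8 counts and SDC2 had 1 to 3 counts per library.

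**Figure D3:**
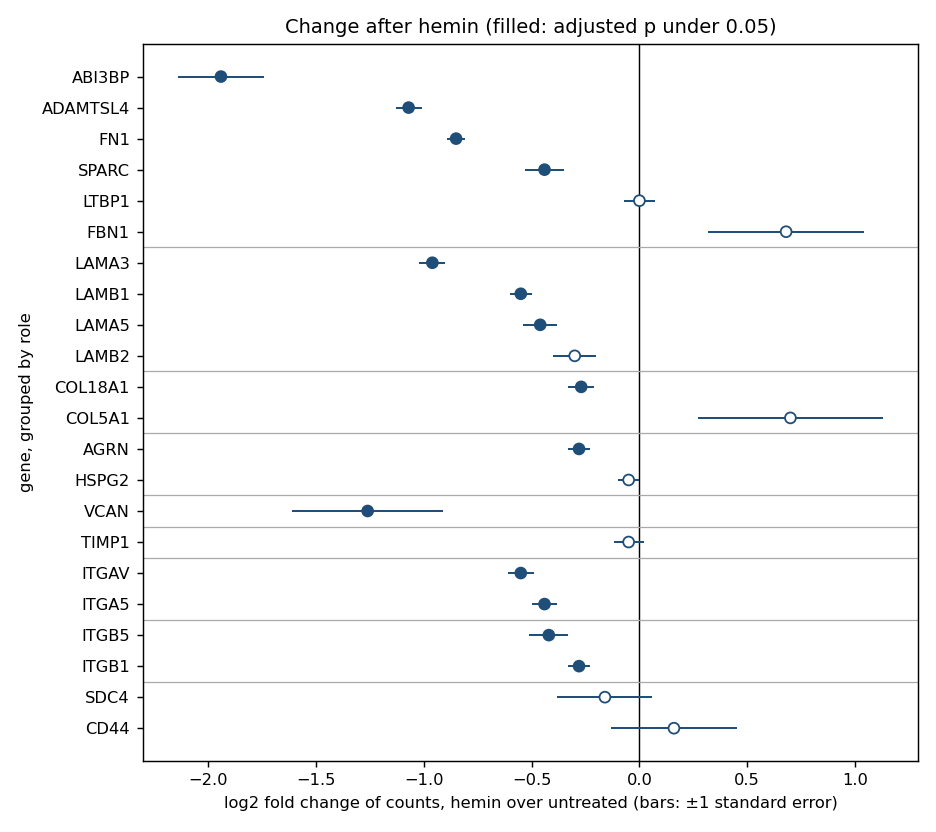
Log2 fold change of the counts after hemin for the 22 tested genes, grouped by role, with bars of 1 standard error and filled points for an adjusted p under 0.05. The 14 filled points all lie below 0, from -1.94 for ABI3BP to -0.27 for COL18A1, and the open points FBN1 and COL5A1 on the right have the longest bars with VCAN.

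In all, 19 of the 41 genes were not tested, with 0 to 32 counts summed over the 4 libraries, and 6 of these (COL4A2, ITGA4, TGFBI, TIMP2, TIMP3 and NID1) had no count at all. A count of 0 allows up to 3 counts, which is 0.364 to 0.402 CPM (counts scaled to the library total), and this limit covers counting error only. The summed level of the 41 genes was 958.7 and 908.7 TPM in the untreated libraries and 716.5 and 688.3 TPM in the treated ones.

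The tested members had longer transcripts than other genes, with a median of 3511 bases against 2028 over all genes tested. Of the 8 tested members with a mean length of at least 4000 bases, 6 fell, and 9.47% of all tested genes of that length were called lower. Of the 7 members between 2000 and 4000 bases 5 fell, beside 8.05% of all genes of that length. Between 1000 and 2000 bases 3 of 6 members fell, beside 6.64% of all genes. The 1 member under 1000 bases was not called, beside 3.68% of all genes called lower. A correction that removes a trend of the fold change with length left all 14 calls in place. It had little to remove, as the median log2 fold change of all genes lay between -0.01 and 0.00 in these length classes. It does not act on the share of genes called, so the part of length in the calls was not tested.

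**Figure D4:**
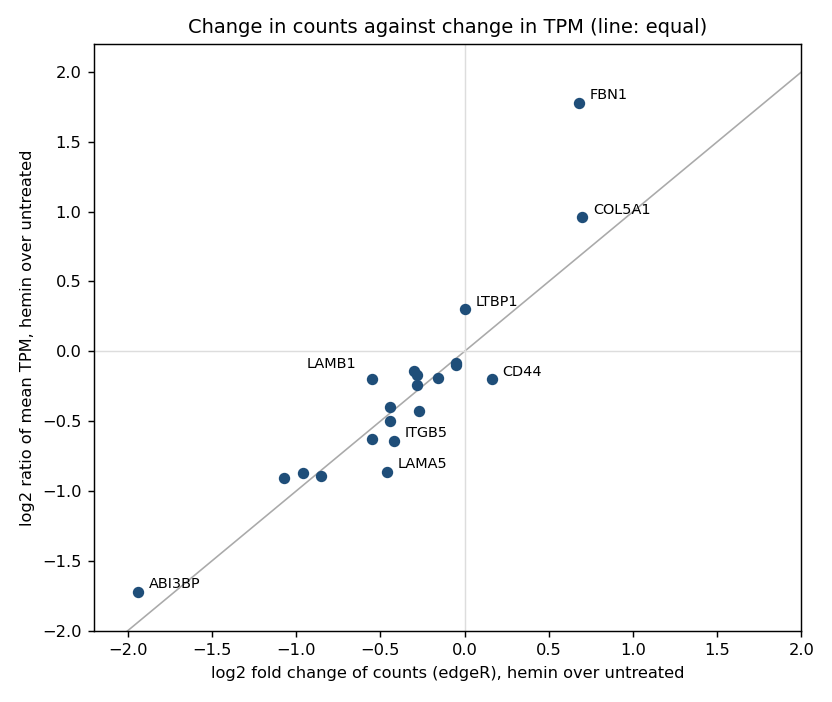
Log2 fold change of the counts from edgeR (horizontal) against the log2 ratio of mean TPM (vertical), hemin over untreated, for the 21 tested genes with a mean above 0.5 TPM in both conditions, with a line where both are equal. LAMB1 lies above the line at -0.55 and -0.20, LAMA5 below it at -0.46 and -0.86, and FBN1 lies farthest from it at 0.68 and 1.78.

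The other genes of the pathway were taken from 11 lists that hold 271 genes in all, each counted once. Of the 148 tested, 20.9% were called lower and 5.41% higher, with a median log2 fold change of -0.14, beside 7.14% and 7.00% of all genes. The share of decreases was smaller than the 63.6% of the 22 members. The members and the lists were both drawn up with earlier results of these data known. The differences between members, lists and all genes therefore carry no test.

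Among the structural genes of these lists, 2 of 11 tested collagens, 4 of 14 tested glycoproteins and 3 of 7 tested proteoglycans were called lower, 1 glycoprotein was called higher, and none of 3 tested laminins and netrins was called. The collagen chain COL11A1 fell by 1.88 on the log2 scale (42 and 50 counts against 10 and 15) and COL15A1, a relative of COL18A1 and the most abundant of these collagens, fell by 0.19 (905 and 883 against 762 and 811). COL4A5, the other abundant one, had a log2 fold change of -0.32 with an edgeR adjusted p of 0.128. LTBP4 fell by 0.66 (1094 and 1020 against 667 and 681 counts). The counts of thrombospondin (THBS1) and of MFGE8, a ligand of ITGAV integrins, each fell by 0.45. The TPM of THBS1 went the other way, from 9.79 and 7.38 to 11.9 and 9.44, which overlap, and limma on log2(TPM + 1) and log2(TPM + 0.1) gave log2 fold changes of 0.28 and 0.31 that were not past the threshold (adjusted p = 0.513 and 0.508). CRIM1 rose by a log2 fold change of 0.27, with overlapping TPM. The heparan sulfate carriers GPC2 (-1.70), GPC5 (-0.87) and SDC3 (-0.53) fell in counts, with those of SDC3 at 338 and 295 against 197 and 243 and its TPM overlapping. LAMA2 and NTN1, the most abundant of the other laminins and netrins, had log2 fold changes of -0.29 and -0.09 with edgeR adjusted p of 0.153 and 0.83.

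The receptors beyond the members are read beside all genes tested, of which 7.14% were called lower and 7.00% higher. Of 5 other integrin chains tested none was called lower, although their median log2 fold change was -0.71. ITGA1, a collagen-binding alpha chain, rose by a log2 fold change of 0.45 (105 and 99 counts against 127 and 154, edgeR adjusted p = 0.0431), with overlapping TPM. ITGAE, at 39 and 36 against 22 and 24 counts, had a log2 fold change of -0.71 (standard error 0.27). It was not past the threshold (edgeR adjusted p = 0.112). Of 14 other adhesion receptors tested 2 fell, LRP1 by 1.34 and BCAM, the Lutheran glycoprotein that binds the LAMA5 chain, by 0.92 (75 and 89 counts against 42 and 45, edgeR adjusted p = 0.0157). The abundant receptors RPSA and BSG had log2 fold changes of -0.02 and 0.02, with edgeR adjusted p of 0.811 and 0.834. In the machinery that links integrins to actin, 2 of 32 tested genes fell and 2 rose. PTK2B, a relative of focal adhesion kinase, fell by 1.01 (819 and 765 counts against 396 and 397), whereas CRK and LYN rose by log2 fold changes of 0.27 and 0.24. ACTN4 and FLNA, the most abundant of this list, had log2 fold changes of -0.06 and 0.00.

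Of the 18 tested genes for collagen folding and cross-linking, 6 fell and none rose. The transglutaminase TGM2, which also binds fibronectin, fell by 1.11 (189 and 192 counts against 89 and 88), and the prolyl hydroxylase subunits P4HA2 and P4HA1 fell by 0.60 and 0.55. P4HB and CRTAP, the most abundant of this list, had log2 fold changes of -0.03 and -0.05. Of 21 tested matrix proteases and inhibitors 5 fell and 2 rose. ADAM19 fell by 1.73, the membrane-bound metalloproteinase MMP14 by 0.89 and ADAMTS14, which trims procollagen, by 0.79 (1544 and 1360 counts against 808 and 878). Cathepsin L (CTSL) rose by a log2 fold change of 0.25 (531 and 503 counts against 613 and 624, edgeR adjusted p = 0.0273). ADAM10 had a log2 fold change of -0.14 (edgeR adjusted p = 0.0948).

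TGF-beta, which raises the transcription of many matrix genes in other cells, had 5 of its 13 tested pathway genes lower and 2 higher. The receptor TGFBR2 was not tested, with 0, 1, 0 and 1 counts in untreated replicates 1 and 2 and hemin replicates 1 and 2. TGFB1 itself fell by 0.43 (1620 and 1520 counts against 1123 and 1214), as did the feedback genes SKIL by 0.61 and SMURF2 by 0.45, while the receptor TGFBR1 and the repressor SKI rose by log2 fold changes of 0.31 and 0.27. Of 11 tested regulators of the YAP, TEAD and SRF kind 2 fell, TEAD1 by 0.49 and AMOTL1 by 0.17, and TEAD4 had a log2 fold change of 0.17 (edgeR adjusted p = 0.308). YAP1 had 1, 2, 1 and 4 counts and WWTR1 had 3, 1, 0 and 1 in the same order, and neither was tested.

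Of the 31 called genes that the naming rule took from these lists, 13 were called in all 12 alternatives on counts and 2 by limma on log2(TPM + 1), a check added after the values were seen. COL11A1 and GPC2 got no adjusted p in DESeq2, which leaves out genes of low mean count, and were called in the other 11. The calls of COL15A1, ITGA1, MMP14 and SMURF2 were lost when any 1 of the 4 libraries was left out, as well as in DESeq2 and with the replicate block, with edgeR adjusted p of 0.0511 to 0.209 over the 4 left-out libraries. Leaving out untreated replicate 1 or untreated replicate 2 each also lost CRIM1, CRK, CTSL, GPC5 and LYN, and leaving out 1 library or another lost AMOTL1, BCAM, P4HA2, SDC3, SKI and SKIL. Among the genes called higher, TGFBR1 alone was called in all alternatives on counts.

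**Figure D5:**
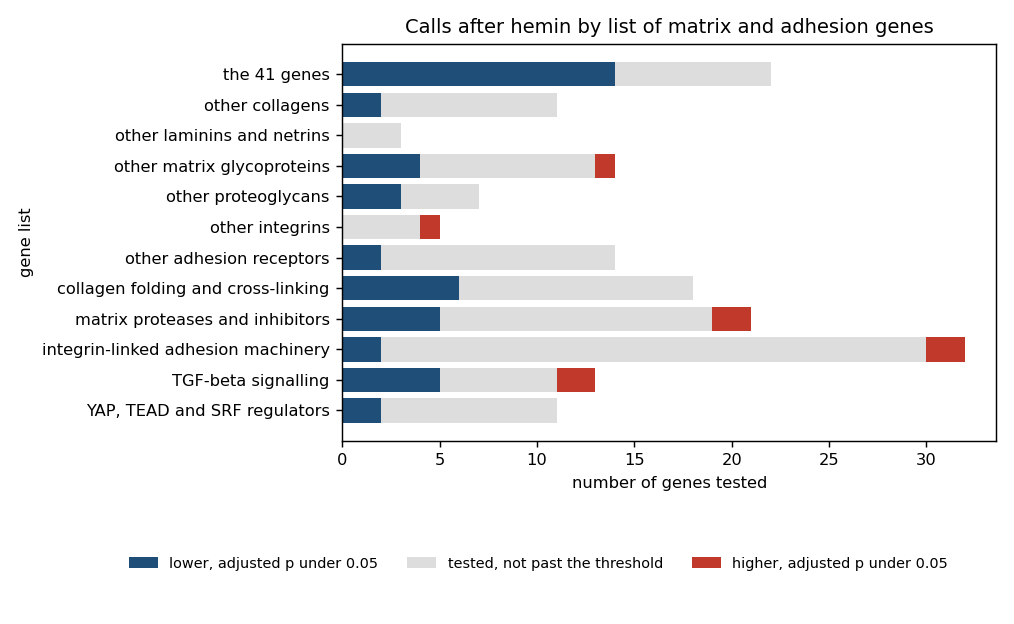
Number of tested genes in the group described here and in the 11 lists of other matrix and adhesion genes, split into those called lower (blue), those not past the threshold (grey) and those called higher (red). Lower calls make up 14 of 22 in the group, 6 of 18 in collagen folding and cross-linking and 2 of 32 in the integrin-linked machinery.

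Of the other cell types that make matrix, fibroblasts and endothelium had markers near 0. The 10 fibroblast markers summed to 6.58 and 8.93 TPM in untreated and 5.6 and 5.77 TPM in treated libraries, with PDGFRA, POSTN and FAP at no count, and COL1A2, at 108 and 121 against 72 and 88 counts, as the main source. The 8 endothelial markers summed to 0.38 to 0.53 TPM with CDH5, KDR, VWF and ROBO4 at no count. Monocyte and granulocyte markers summed to 12.2 TPM in each untreated library and to 9.08 and 6.6 TPM in the treated ones, with MPO, ELANE and S100A9 at no count, and lymphoid markers to 1.15 to 4.08 TPM with CD3E and MS4A1 at no count. Of the 7 epithelial markers, KRT8, KRT18, EPCAM and, at 10.9 to 14.2 TPM, KRT19 were expressed, and CDH1 and KRT14 had no count. The sum of the 7 was 433.1 and 443.6 against 385.6 and 376.6 TPM, with KRT8 called lower. The megakaryocyte markers summed to 100.2 to 116.5 TPM with GP9, PF4, PPBP, VWF and SELP at no count. The main sources of that sum were NFE2 (51.1 to 67.4 TPM), called lower, and GP1BB (31.5 to 55.9 TPM), called higher. The 15 erythroid markers summed to 6964 and 7161 TPM in untreated and 9074 and 8537 TPM in treated cells, with 5 called higher and 1 lower, so the cells carried the erythroid markers of their label and these moved with the decreases described above. The part of the erythroid shift in those decreases was not tested.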

How the data were processed

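Poly(A) RNA of 2 untreated and 2 hemin-treated K562 libraries was sequenced in reads of 50 bases. The authors trimmed the reads with Trimmomatic 0.39 and ran RSEM 1.3.1 with STAR on the Ensembl 106 genome and annotation, for each replicate separately. The deposited expected counts are estimated counts per gene, not normalized. The deposited TPM are scaled by effective length and depth, and the authors' mean TPM were checked to be averages of both libraries. The deposited posterior SD of the count, a score in reads, describes how reads shared between genes were divided.

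Expected counts were rounded, filtered with filterByExpr, scaled by TMM and tested with the quasi-likelihood test of edgeR 4.0.16 in R 4.3.3, with condition as the only term, Benjamini-Hochberg adjustment over 14458 genes and a threshold of 0.05. TPM served for levels, given as mean ± SD of 2 libraries. The fit was repeated with DESeq2 1.42.0, with RLE factors or plain library sizes, with no count filter or one of at least 20 counts in both libraries of a condition, with a replicate block, with any single library removed, with posterior mean counts, with a centred length correction (loess span 0.4), and with limma 3.58.1 on TPM at pseudocounts of 1 and 0.1 before the log2 step. Coordinates are from GENCODE 44 on GRCh38.

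The members and lists were chosen with earlier results of these data known. Every member was named. Of each other list, the called genes with at least 20 counts in all (at most 3 in each direction) and the 2 of highest TPM were named. TGFBR2, YAP1 and WWTR1 were named besides for their low counts, after the values were seen. BSG stands in 2 of the lists. A few genes of the other lists are not reported here by name. No gene set was tested. The deposited FPKM tables were not used.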

Additional observations from a re-analysis of the deposited data

How the results depend on the processing

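Between 11 and 15 members were called lower and none higher under each alternative on counts, and 10 of the 14 (FN1, ABI3BP, ADAMTSL4, LAMA3, LAMA5, LAMB1, ITGA5, ITGAV, ITGB1 and AGRN) were called in all 12 of these. Over all genes, DESeq2 called 505 lower and 589 higher. By limma on log2(TPM + 1) the counts were 33 lower and 14 higher over all genes with 1 member lower, and on log2(TPM + 0.1) 34, 15 and 1; there the adjusted p was 0.0633 and 0.0676 for FN1 and 0.0367 and 0.041 for LAMA3. Without 1 library at a time, 487 to 862 genes were lower, 451 to 856 higher and 11 to 13 members lower. Scaling by library size alone gave 1358 lower and 729 higher genes, so 34.9% of calls were higher against 49.5%, and 14 members lower.

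The median log2 fold change of the tested members was -0.43 with at least 20 counts in both libraries of a condition, which removes COL5A1, -0.31 by limma on log2(TPM + 1), and -0.43 to -0.33 without 1 library at a time. With the replicate block, 886 genes were lower and 855 higher and 13 members were lower, the call of VCAN being lost at an adjusted p of 0.0724. Samples that share a number share nothing else in the labels, and their deviations correlated at 0.027 over genes, so the block is not a paired test. LAMB2 was gained (adjusted p = 0.0114, 0.0488 and 0.0279) with no count filter, with at least 20 counts and with posterior mean counts.

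Among members, signs turned only for some near 0 that were not called in any alternative. LTBP1 was 0.00 with RLE factors and DESeq2, 0.01 with no filter, 0.28 and 0.29 by limma with pseudocounts of 1 and 0.1, and -0.04 to 0.04 without a library. CD44 was -0.21 and -0.25 by limma and -0.14 to 0.56 without a library, HSPG2 was -0.10 to 0.00 and TIMP1 was -0.12 to 0.02 without a library. Where 1 library remained in a condition, its spread was taken from the other condition. Of the called list genes, THBS1 turned to 0.28 and 0.31 by limma with pseudocounts of 1 and 0.1.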
